A study of Mus musculus with 10 samples.

Results

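RNA levels of 10 marker genes of adventitial fibroblasts and stromal progenitor cells were compared between young and old mouse aortae. The genes were *Pdgfra*, *Pdgfrb*, *Gli1*, *Ly6a*, *Cd34*, *Pi16*, *Scara5*, *Dpep1*, *Dpt* and *Clec3b*. They were taken by symbol as known markers of these cells without the structural collagens. All 10 were found among the 55453 gene symbols of the count table, and all 10 were among the 14614 genes with enough counts to be tested. RNA-seq was performed on whole aortae of 10 male C57BL/6 mice, 5 young (14.5 weeks) and 5 old (92.5 weeks), with 1 library per mouse, to find genes regulated by arterial aging. The labels name no transgene and no treatment in either group. Both groups were bought from the same supplier, ate standard chow and were sacrificed at the same time, and the surrounding fat was removed from the saline-perfused vessel before RNA extraction. Whether mice of an age shared a litter or shipment is not given in the sources used here, and such a difference cannot be told apart from age.

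The adventitia is the outer coat of the artery, where fibroblasts, progenitor cells, nerves, small vessels and resident immune cells lie in collagen-rich tissue. Fibroblasts there carry the platelet-derived growth factor receptor alpha, and a subset marked by *Pi16*, *Ly6a* and *Cd34* is regarded as a progenitor-like population. Stromal cells that express *Gli1*, a transcription factor and target of Hedgehog signaling, lie in the same coat and around small vessels. None of these genes belongs to fibroblasts alone. *Cd34* and *Ly6a* are also made by endothelial cells, *Ly6a* by blood progenitors, and *Pdgfrb* by pericytes and smooth muscle cells.

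The libraries held 19640401 to 22886153 counts. Together the 10 markers took 0.248% to 0.310% of all counts in young aortae and 0.216% to 0.280% in old aortae, and these ranges overlapped. Every marker had at least 595 counts in every library, and the highest was *Pi16* with 12624 counts in a young aorta. Mitochondrial transcripts took 11% of the counts of old mouse 2 and 4.50% to 6.51% in the other 9 libraries. Values are given as normalized counts, which are counts divided by a size factor of each library, and a gene was called when its edgeR adjusted p was below 0.05 over all genes tested. No pair of libraries of a group agreed within counting error (chi-square over degrees of freedom 8.06 to 58.8 in 20 pairs), so each mouse was counted as a replicate.

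Of the 10 markers, 1 was lower in old aortae and none was higher. The lower gene was *Pi16*, at 0.668 times its young level. *Dpep1* moved the other way, to 1.34 times its young level, but its edgeR adjusted p of 0.0572 missed the threshold. Over all genes tested, 11.5% were called in either direction, 6.48% higher and 4.99% lower in old aortae, so 1 call among 10 markers is a share near that background. At an unadjusted p below 0.05, 1 marker was higher (*Dpep1*) and 3 were lower (*Pi16*, *Cd34* and *Scara5*), where 26.7% of all genes tested passed, 14.1% higher and 12.6% lower. DESeq2 called 1 marker higher and 1 lower, with 13.6% of its genes called, 7.24% higher and 6.33% lower. limma-voom called 0 higher and 1 lower, with 11.6% of genes called, 6.53% higher and 5.07% lower. The 10 log2 fold changes had a median of -0.15, with 4 above zero, against a median of 0.00 over all genes tested. The normalized counts of the 2 groups overlapped for every marker, whereas they did not overlap for 9.92% of all genes tested.

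**Figure D1:**
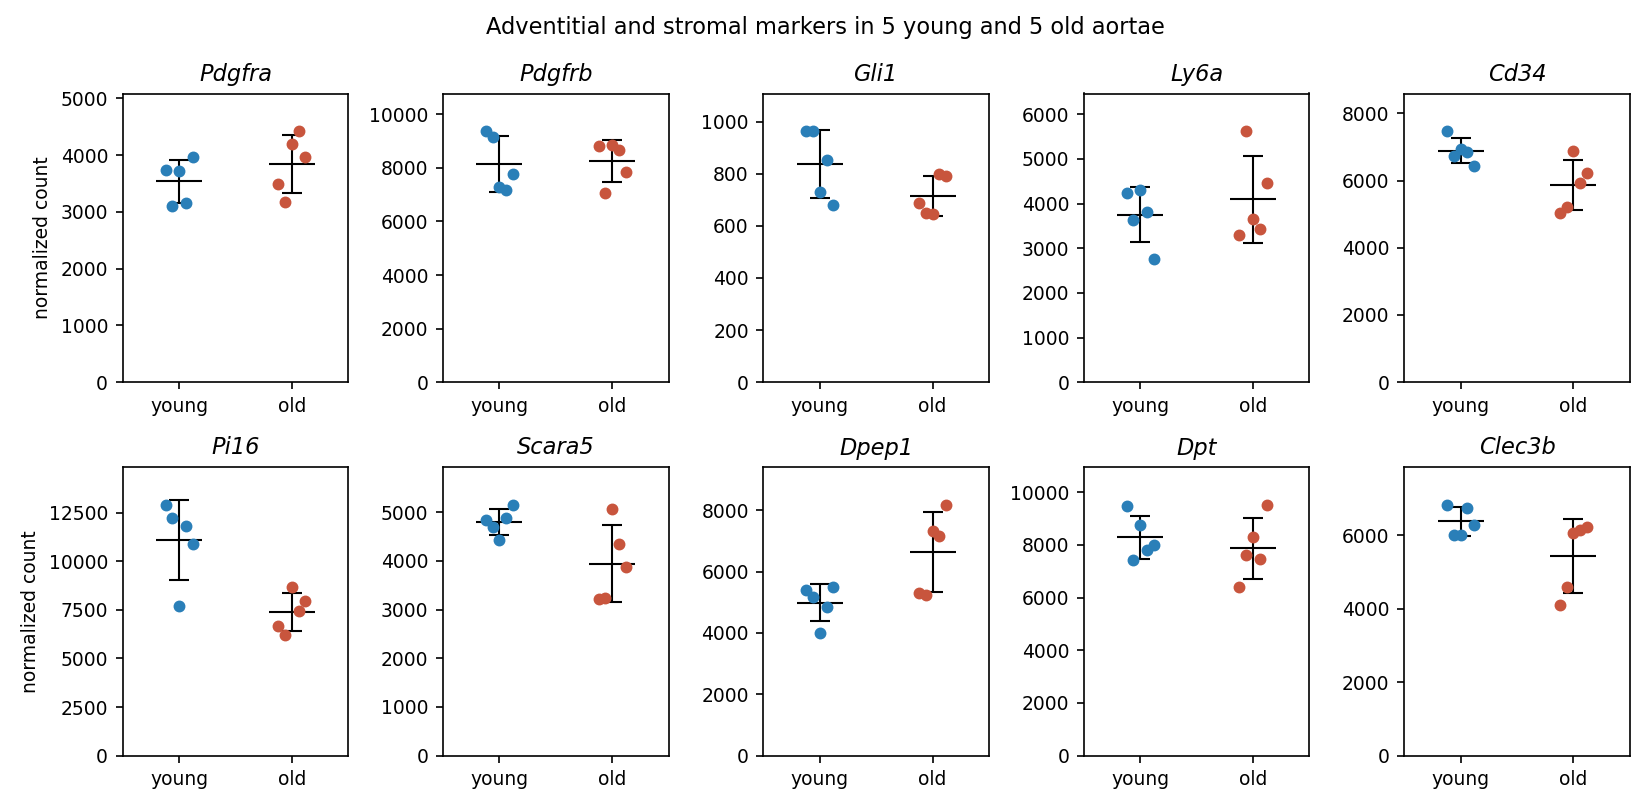
Normalized counts (y axis, from zero) of the 10 markers in each young (blue) and old (red) aorta, with the mean (long bar) and SD (short bars) of 5 mice. The groups overlap in each panel, with 4 of 5 young aortae above all old aortae for *Pi16* and 3 of 5 old aortae above all young aortae for *Dpep1*.

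*Pi16* (chr17:29317680-29330593, plus strand, GRCm38) encodes peptidase inhibitor 16, a protein tethered to the cell surface and used to mark progenitor-like fibroblasts. The 5 young aortae held 12906, 12233, 7674, 11828 and 10903 normalized counts. The old aortae held 6683, 6186, 8652, 7425 and 7959. Young mouse 3 lay inside the old range, and the other 4 young mice lay above every old mouse. The mean was 11109 ± 2052 (SD, n = 5) in young and 7381 ± 983 (SD, n = 5) in old mice. That is -0.58 ± 0.13 (SE) on the log2 scale, with a 95% interval of -0.87 to -0.29 and an edgeR adjusted p of 0.0147, which ranked 845 of 14614. Without young mouse 3 the log2 fold change was -0.69 with an edgeR adjusted p of 0.00113. At the threshold of 0.05 the gene was called in all 18 other settings that kept the samples unpaired, with adjusted p between 0.00034 and 0.0414. At a threshold of 0.01 it was not called in the main edgeR fit. Values below 0.01 came from DESeq2 and from the fit without young mouse 3. In whole tissue, fewer cells of a type and less RNA per cell cannot be told apart.

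*Dpep1* (chr8:123186242-123201812, plus strand) encodes a membrane-bound dipeptidase that cleaves dipeptides and leukotriene D4. Young aortae held 5388, 5167, 3995, 4847 and 5498 normalized counts. Old aortae held 5305, 5219, 7316, 7149.6 and 8178. Old mice 1 and 2 lay inside the young range, and old mice 3, 4 and 5 lay above it. The mean went from 4979 ± 604 to 6634 ± 1312 (SD, n = 5 each), a log2 fold change of 0.42 ± 0.13 (SE) with a 95% interval of 0.14 to 0.71. The interval left out zero before adjustment for the number of genes. *Dpep1* was called in 4 of the 18 other settings, which were DESeq2 (adjusted p = 0.0207), upper-quartile scaling (edgeR adjusted p = 0.0475), and the fits without old mouse 1 (edgeR adjusted p = 0.0298) or old mouse 2 (edgeR adjusted p = 0.0272). Its adjusted p over those settings ran from 0.0207 to 0.151.

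The ratio of *Dpep1* to *Pi16* counts within a library needs no scaling between libraries. It was chosen after the values were seen and is given without a test. In young aortae it was 0.417, 0.422, 0.521, 0.410 and 0.504. In old aortae it was 0.794, 0.844, 0.846, 0.963 and 1.03. The groups did not overlap in this ratio, although each gene alone overlapped. The ratio sets the marker with the highest log2 fold change over the one with the lowest, a choice that itself favours separation. Young mouse 3 had the fewest counts of both genes among the young aortae, and old mouse 2 the fewest of both among the old aortae.

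**Figure D2:**
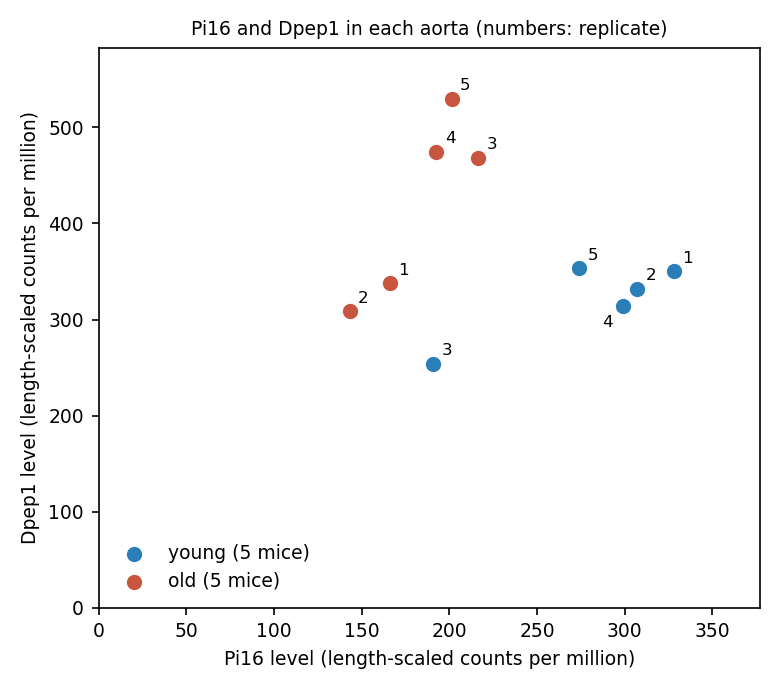
Level of *Pi16* (x axis) against *Dpep1* (y axis) in each aorta, both in length-scaled CPM, with the replicate number beside each point. Each gene overlaps between old (red) and young (blue) aortae, while the ratio of *Dpep1* to *Pi16* counts is 0.410 to 0.521 in young and 0.794 to 1.03 in old mice. The pair was chosen after the values were seen, as the markers with the highest and lowest log2 fold change, and the ratio was not tested.

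*Pi16* and *Dpep1* had the largest log2 fold changes of the 10 markers, and the stretch before the start of *Dpep1* is shown for context. It is the RefSeq window of 250 bases before the start (chr8:123185985-123186234, plus strand, GRCm38.p6), written 5′ to 3′ in lower case because none of the motifs searched occurred in it.

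Dpep1: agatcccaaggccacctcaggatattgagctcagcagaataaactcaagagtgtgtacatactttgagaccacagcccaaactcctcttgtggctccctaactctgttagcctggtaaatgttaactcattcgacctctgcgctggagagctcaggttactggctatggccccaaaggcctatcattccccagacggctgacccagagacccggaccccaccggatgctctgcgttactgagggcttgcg

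The search covered both strands for a TATA box (TATAAA, in 12.4% of all 32851 RefSeq promoters of this length), a GC box (GGGCGG, 32.7%), a CCAAT box (CCAAT, 33.8%), a STAT site (TTCNNNGAA, 7.0%), a GLI site (GGGTGGTC, 0.7%), an E-box (CAGCTG, 13%) and the repeat of an interferon response element (GAAANNGAA, 7.1%). The *Pi16* window (chr17:29318632-29318881, plus strand) held 1 match, a CCAAT box that begins 64 bases before the RefSeq start. That window lies inside the GENCODE span of *Pi16*, downstream of its annotated start, and its letters are not shown. The windows of *Cd34* and *Pdgfra* held none of the motifs. The *Dpt* window held an E-box that begins 200 bases and a STAT site that begins 128 bases before the start. These matches describe the letters and were not tested for binding. Windows of 5 of the 10 markers are reported here.

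The other surface markers were *Cd34*, *Scara5* and *Ly6a*. *Cd34* (chr1:194938819-194961279, plus strand) encodes a sialomucin of progenitor, endothelial and stromal cells. Young aortae held 7472, 6726, 6950.3, 6856 and 6443 normalized counts. Old aortae held 5044, 5216, 6874, 5937 and 6237. Old mouse 3 lay within the young range and the other 4 old mice lay below it. The log2 fold change was -0.23 ± 0.08 (SE), 6889 ± 378 against 5862 ± 751 (SD, n = 5 each), with a 95% interval of -0.40 to -0.05 and an edgeR adjusted p of 0.101. It was called in 1 of 18 other settings, the fit without old mouse 3 (log2 fold change -0.29, edgeR adjusted p = 0.0313).

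*Scara5* (chr14:65666403-65764826, plus strand) encodes a scavenger receptor that binds ferritin. Its young aortae were close together, at 4833, 4694, 4426, 4879.5 and 5156 normalized counts. The old aortae spread from 3211 and 3231 in mice 1 and 2 to 5070.1 in mouse 3, with 4338 in mouse 4 and 3869 in mouse 5. Old mouse 3 was again within the young range and the other 4 were below it. *Scara5* had a log2 fold change of -0.27 ± 0.11 (SE), from 4798 ± 267 to 3944 ± 787 (SD, n = 5 each), with a 95% interval of -0.52 to -0.03 and an edgeR adjusted p of 0.142. Without old mouse 3 it was -0.38 with an edgeR adjusted p of 0.0192, so that 3 markers (*Pi16*, *Cd34* and *Scara5*) were called lower in that fit. Old mouse 3 also had the highest summed macrophage level, 21071 normalized counts against 11689 to 13634 in the other old mice, and its part in these values was not tested.

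*Ly6a* (chr15:74994877-74998031, minus strand) encodes the stem cell antigen SCA1. Young aortae held 4245, 3629, 4297, 3814 and 2761 normalized counts. Old aortae held 3289.8, 5622, 3658, 3439 and 4456. The lowest value was in young mouse 5 and the highest in old mouse 2, with the rest mixed. *Ly6a* had a log2 fold change of 0.13 ± 0.16 (SE), 3749 ± 621 against 4093 ± 966 (SD, n = 5 each), with an edgeR adjusted p of 0.654. The 95% interval of -0.22 to 0.49 leaves room for a change either way, and without old mouse 2 the log2 fold change was -0.01. Of the short stretches along its exons, 19% also occur in another gene, mostly *Ly6c1*, so reads may be split between these paralogs.

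Neither growth factor receptor was called. *Pdgfra* (chr5:75152292-75198215, plus strand) binds PDGF chains and marks fibroblasts. Young aortae held 3744, 3101, 3725, 3163 and 3961 normalized counts. Old aortae held 3494, 3169.9, 4196, 4422 and 3959.9. Old mice 3 and 4 were above the young range and the other 3 were within it. For *Pdgfra* the log2 fold change was 0.13 ± 0.10 (SE), 3539 ± 383 against 3848 ± 512 (SD, n = 5 each), with a 95% interval of -0.08 to 0.34 and an edgeR adjusted p of 0.437.

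*Pdgfrb* (chr18:61045150-61085061, plus strand) is the receptor of pericytes, fibroblasts and smooth muscle cells. Its young aortae held 9371, 9157, 7285, 7165 and 7785 normalized counts. The old aortae held 8823, 7066, 8839, 8671 and 7862. Young mice 1 and 2 were above every old mouse, old mouse 2 was below every young mouse, and the rest were mixed. The log2 fold change was 0.03 ± 0.09 (SE), 8153 ± 1044 against 8252 ± 776 (SD, n = 5 each), with a 95% interval of -0.17 to 0.22 and an edgeR adjusted p of 0.893. The pericyte markers, which share cells with *Pdgfrb*, summed to 90579.7 to 142311 normalized counts in young and 98057 to 161531 in old aortae, and those ranges overlapped as well. Most of that sum was *Rgs5* (mean 86225.6 in young and 101852.5 in old aortae), so it mainly gives the level of 1 gene.

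*Gli1* (chr10:127329882-127341974, minus strand) was the least abundant marker. The young aortae held 962, 963, 731, 853 and 681 normalized counts. The old aortae held 686, 648, 646, 799 and 791. Young mice 1, 2 and 4 were above every old mouse, and old mice 2 and 3 were below every young mouse. *Gli1* had a log2 fold change of -0.22 ± 0.11 (SE), 838 ± 129.6 against 714 ± 75.8 (SD, n = 5 each), with a 95% interval of -0.45 to 0.00 and an edgeR adjusted p of 0.197. Its exons overlap those of *Arhgap9* on the other strand, which had 27 to 137 counts per library, and whether counting used strand is not given in the sources used here.

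The secreted markers were *Dpt* and *Clec3b*. *Dpt* (chr1:164796644-164824266, plus strand) encodes dermatopontin, a small matrix protein that binds decorin. Young aortae held 9490.0, 7427, 8740.0, 7824 and 8015 normalized counts. Old aortae held 6422, 7622, 8286, 7484 and 9531. Old mouse 1 was below and old mouse 5 above the young range. For *Dpt* the log2 fold change was -0.07 ± 0.10 (SE), 8299 ± 818 against 7869 ± 1144 (SD, n = 5 each), with a 95% interval of -0.28 to 0.14 and an edgeR adjusted p of 0.710.

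*Clec3b* (chr9:123150946-123157432, plus strand) encodes tetranectin, a secreted lectin that binds plasminogen. Young aortae held 6838, 6013, 6023, 6745 and 6296 normalized counts. The old aortae fell into a low pair, 4093 and 4608 in mice 1 and 2, and 3 higher values of 6064, 6145 and 6243. Those 3 lay within the young range and mice 1 and 2 lay below it. The log2 fold change was -0.23 ± 0.11 (SE), 6383 ± 391 against 5431 ± 1004 (SD, n = 5 each), with a 95% interval of -0.47 to 0.02 and an edgeR adjusted p of 0.217.

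**Figure D3:**
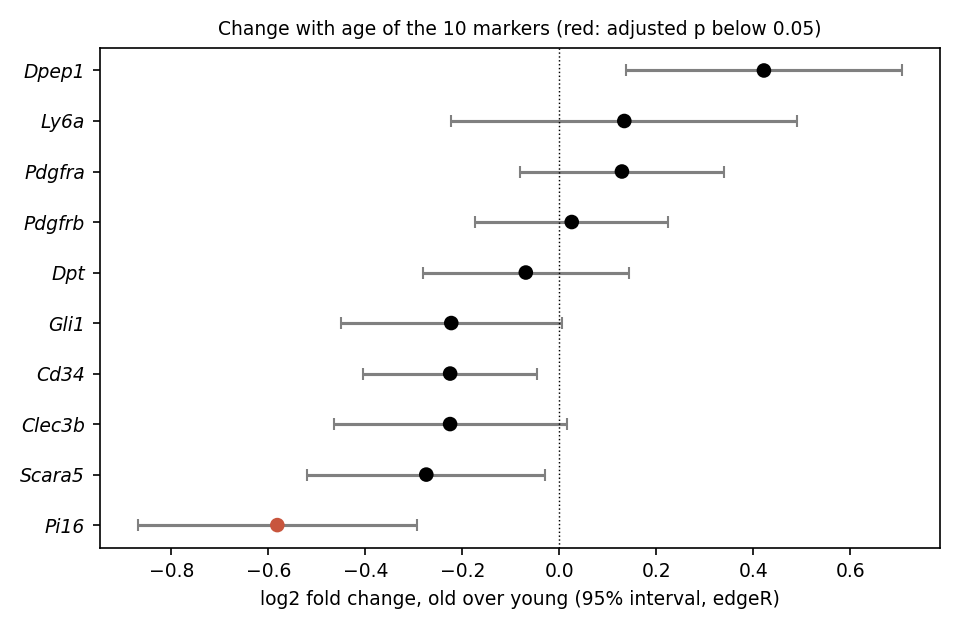
Log2 fold change of each marker, old over young (x axis), with its 95% interval from edgeR as a bar. *Pi16* (red) is the gene called, at -0.58, and the intervals of *Cd34*, *Scara5* and *Dpep1* also leave out zero without reaching an adjusted p of 0.05.

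Which mouse was lowest or highest differed by marker, and whether the same mice recurred more often than by chance was not tested. Old mouse 1 had the lowest old value for 5 markers (*Ly6a*, *Cd34*, *Dpt*, *Scara5* and *Clec3b*). Old mouse 2 was the lowest for 4 others (*Pdgfra*, *Pdgfrb*, *Pi16* and *Dpep1*) and the highest for *Ly6a*. Its library also had the highest mitochondrial share, 11%, and the lowest smooth muscle sum, 850505 normalized counts. The part of these in its marker values was not tested. Old mouse 3 had the highest old value for *Pdgfrb*, *Pi16*, *Cd34* and *Scara5*. Among young mice, mouse 1 was the highest for 5 markers (*Pdgfrb*, *Pi16*, *Cd34*, *Dpt* and *Clec3b*) and the lowest for none. Young mouse 5 was the highest for 3 markers (*Pdgfra*, *Scara5* and *Dpep1*) and the lowest for 3 (*Ly6a*, *Cd34* and *Gli1*). Young mouse 1 also had the highest adipocyte sum, 48325 normalized counts, within a young range of 20593 to 48325, and its part in the marker values was not tested. The spread over mice, as a coefficient of variation, was 5.48% for *Cd34*, 5.57% for *Scara5* and 6.13% for *Clec3b* in young aortae, against 12.8%, 19.9% and 18.5% in old aortae. *Pdgfrb*, *Pi16* and *Gli1* varied less in old than in young aortae, at 9.40%, 13.3% and 10.6% against 12.8%, 18.5% and 15.5%. Differences in spread were not tested. Counting error alone would give 0.95% to 3.72%, so most of the spread lay between mice or their library preparations.

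Levels were compared between genes as length-scaled CPM, in which each count is divided by the exonic length of its gene and all genes of a library are scaled to the same sum. In young aortae *Clec3b* was the most abundant marker, at 1031 ± 71 (SD, n = 5), followed by *Dpt* at 771, *Ly6a* at 498, *Dpep1* at 321, *Pi16* at 279.8, *Pdgfrb* at 238, *Cd34* at 151, *Scara5* at 126, *Pdgfra* at 56.5 and *Gli1* at 26.9 ± 4.29. Among neighbours in that order the mice overlapped for *Dpep1* and *Pi16* and for *Pi16* and *Pdgfrb*, and for no other pair. In old aortae *Clec3b* was at 869 ± 184 (SD, n = 5), *Dpt* at 723, *Ly6a* at 534, *Dpep1* at 424, *Pdgfrb* at 239, *Pi16* at 184, *Cd34* at 127, *Scara5* at 103, *Pdgfra* at 61.0 and *Gli1* at 22.7 ± 3.16. Neighbours overlapped in that order except *Dpep1* with *Pdgfrb*, *Scara5* with *Pdgfra*, and *Pdgfra* with *Gli1*. The order differed between the ages in 1 exchange. *Pi16* was above *Pdgfrb* in 4 of 5 young aortae and below it in all 5 old aortae. Among all genes *Clec3b* ranked 97 in young and 107 in old aortae, and *Gli1* ranked 5047 and 5596. With the length of the longest transcript in place of the exonic length, a setting added after the data were seen, *Pi16* was at 351 in young and 231.8 in old aortae, above *Pdgfrb* (189.7 and 190.8) in both, so the exchange rests on the length used. With that length *Cd34* moved up to place 5 in both groups, at 283.8 in young and 239.9 in old aortae, and *Dpep1* was below *Pi16* in young (281 against 351) and above it in old aortae (373 against 231.8).

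**Figure D4:**
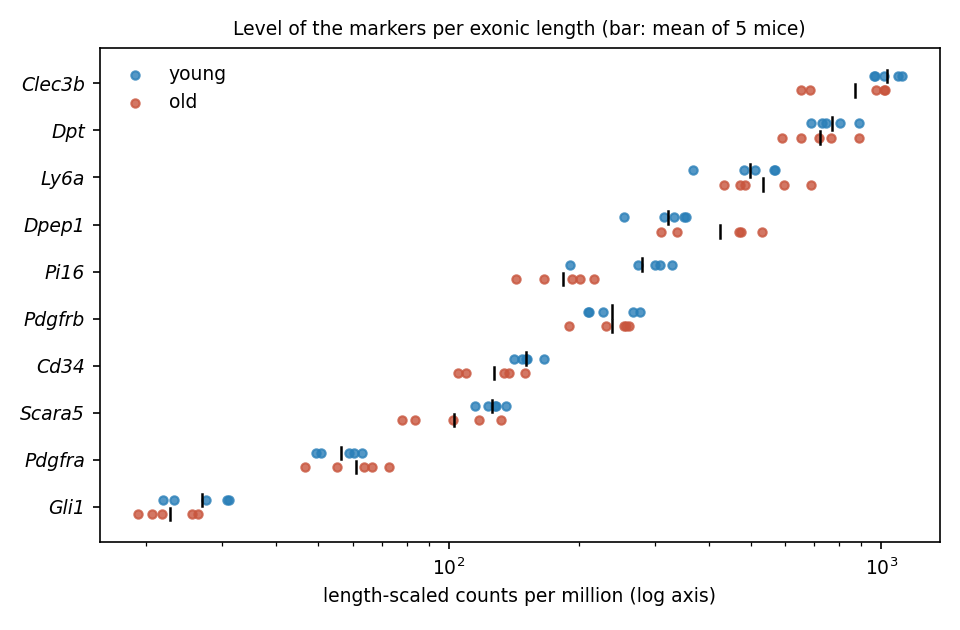
Level of each marker in length-scaled CPM (x axis, log scale) in 5 young (blue) and 5 old (red) aortae, with the group mean as a bar. *Clec3b* is at the top, at 1031 in young and 869 in old aortae, and *Gli1* at the bottom, at 26.9 and 22.7.

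Among PDGF genes, 2 ligands and a receptor-like gene changed, and neither receptor was called. Of the 7 PDGF ligand and receptor genes, which include both markers, 2 rose and 1 fell with age, and the median log2 fold change was 0.11. Over all genes tested, 6.48% were called higher and 4.99% lower. *Pdgfc*, a ligand of the alpha receptor, rose from 801 ± 156 to 1383 ± 191 normalized counts (SD, n = 5 each), with every old above every young aorta (log2 fold change 0.80 ± 0.13 SE, edgeR adjusted p = 0.00235). *Pdgfb* rose from 473 ± 64.0 to 621 ± 68.3 (log2 fold change 0.40 ± 0.10 SE, edgeR adjusted p = 0.0210). *Pdgfrl*, a receptor-like gene, fell from 1572 ± 142 to 987 ± 195, with every old below every young aorta (log2 fold change -0.66 ± 0.13 SE, edgeR adjusted p = 0.00587). *Pdgfa* (log2 fold change 0.11, edgeR adjusted p = 0.292) and *Pdgfd* (log2 fold change -0.22, edgeR adjusted p = 0.0936) were not called.

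In the Hedgehog pathway, to which *Gli1* belongs, edgeR called 0 of 16 genes tested. At an unadjusted p below 0.05, 1 was higher and 5 were lower, against 14.1% higher and 12.6% lower over all genes tested. DESeq2 called *Cdon*, a co-receptor, lower (adjusted p = 0.0235), and limma-voom called *Hhip*, an inhibitor that binds the ligands, lower (adjusted p = 0.0363). *Hhip* had the lowest log2 fold change of the list, -0.77 ± 0.27 (SE), with an edgeR adjusted p of 0.0955. It was also the only gene of the list with every old below every young aorta. The median log2 fold change was -0.06. The receptor gene *Ptch1*, which like *Gli1* is a target of the pathway, had a log2 fold change of 0.12 ± 0.13 (SE) and an edgeR adjusted p of 0.597. *Gli2* was at 0.06 ± 0.10 (SE) and *Gli3* at 0.15 ± 0.07 (SE), with edgeR adjusted p of 0.770 and 0.189.

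Of 17 *Ly6* family genes, 15 had a count and 4 were tested. None was called by edgeR, DESeq2 or limma-voom, and 0 had an unadjusted p below 0.05. *Ly6c1*, an endothelial gene close in sequence to *Ly6a*, had a log2 fold change of 0.24 ± 0.19 (SE) and *Ly6e* of 0.12 ± 0.17 (SE). *Ly6c2*, a monocyte gene, had 5 counts over the young and 35 over the old libraries and was not tested. A list of 4 sialomucin genes that includes *Cd34* and the endothelial *Emcn* had a median log2 fold change of -0.28. All 4 were below zero, the smallest in size at -0.003. Of these, 0 were called by edgeR and 2 had an unadjusted p below 0.05. DESeq2 and limma-voom each called 1 lower, in both *Emcn* (log2 fold change -1.08). Among 6 dipeptidase and scavenger receptor genes tested, which include *Dpep1* and *Scara5*, 1 was higher and none was lower, against 6.48% and 4.99% of all genes tested. The gene called was *Msr1*, a macrophage scavenger receptor, which rose from 68.3 ± 12 to 107 ± 25.1 normalized counts (SD, n = 5 each, edgeR adjusted p = 0.0337).

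A wider list of adventitial fibroblast and stromal progenitor genes moved in both directions. Of 39 tested, 6 rose and 4 fell with age, where 6.48% of all genes tested were called higher and 4.99% lower. The median log2 fold change was 0.00, the same as that of all genes tested. DESeq2 called 9 higher and 7 lower, and limma-voom 8 higher and 5 lower. *Apod*, a lipid-binding apolipoprotein, rose from 757 ± 162 to 4721 ± 1899 normalized counts (SD, n = 5 each, log2 fold change 2.65 ± 0.26 SE, edgeR adjusted p = 0.000278). The chemokine *Cxcl12* rose from 4262 ± 357 to 6719 ± 910.0 (edgeR adjusted p = 0.000829) and the chemokine *Ccl11* from 337 ± 45.9 to 609.7 ± 106 (edgeR adjusted p = 0.000957). *Procr*, the protein C receptor of endothelial and stromal cells, fell from 488 ± 65.2 to 257 ± 46.9 (edgeR adjusted p = 0.000662). In each of these 4 genes the groups did not overlap, as in 9 of the 39, against 9.92% of all genes tested.

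Fibroblast matrix genes were mostly lower. Of 18 tested, 11 were lower and 1 was higher, where 4.99% of all genes tested were called lower and 6.48% higher. The median log2 fold change was -0.36 against -0.15 for the 10 markers. The difference between these lists was not tested. The paper already lists *Col1a1*, *Col1a2*, *Col3a1*, *Col5a1*, *Col5a2*, *Fbn1*, *Mfap5* and *Sparc* as lower in these same libraries. The count of matrix genes called lower is therefore not independent of that report. *Mfap5*, a microfibril protein, fell by 1.03 ± 0.11 (SE) on the log2 scale, from 6778 ± 739 to 3300.5 ± 540.2 normalized counts (SD, n = 5 each, edgeR adjusted p = 9.75e-05). The matricellular gene *Sparc* fell from 104513 ± 6325 to 53278 ± 9220.3 (edgeR adjusted p = 0.00018) and the collagen gene *Col3a1* from 76905 ± 7575 to 40179 ± 6459.9 (edgeR adjusted p = 0.000241). *Col1a1* fell from 58611 ± 8337 to 31070.2 ± 6754 (edgeR adjusted p = 0.00277). *Lum*, a small leucine-rich proteoglycan and the gene that was higher, rose from 5423 ± 526 to 8084 ± 1227 (edgeR adjusted p = 0.00296).

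**Figure D5:**
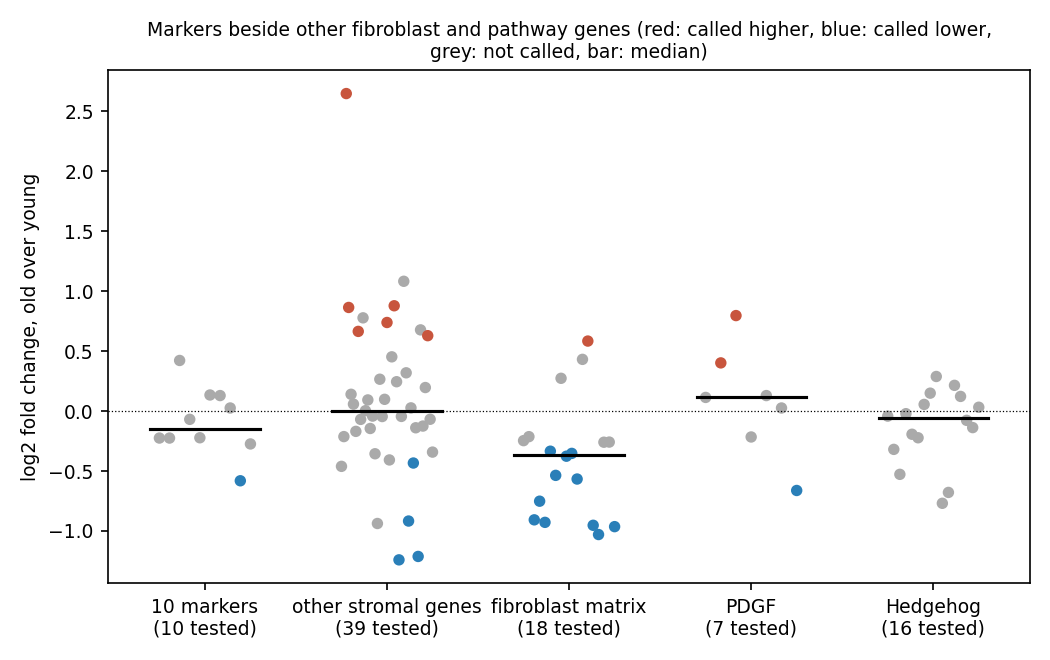
Log2 fold change, old over young (y axis), of the 10 markers and of 4 lists of related genes, 1 point per gene tested, in red where called higher, blue where called lower and grey where not called, with the list median as a bar. The markers span -0.58 to 0.42, and 11 of 18 fibroblast matrix genes are called lower against 1 of 10 markers and 4.99% of all genes tested. The matrix list holds genes that the paper had reported as lower in these same libraries, and the lists were not tested against each other.

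Markers of other cell types were summed per library to show the tissue in which these values were measured. An exact two-sided permutation test over the 10 mice, whose smallest possible p is 0.0079, was run for 9 cell type lists. None passed after Benjamini-Hochberg adjustment. Over 9 lists, a list alone at that smallest p adjusts to 0.0714, so it could not pass 0.05 by itself. Among single genes, edgeR called 6.48% higher and 4.99% lower over all genes tested. DESeq2 called 7.24% of its genes higher and 6.33% lower, and limma-voom 6.53% and 5.07%. At an unadjusted edgeR p below 0.05, 14.1% were higher and 12.6% lower. Macrophage genes summed to 8597 to 11085 normalized counts in young and 11689 to 21071 in old aortae (exact permutation p = 0.0079, adjusted p = 0.0714), and 6 of 10 were called higher by edgeR, 9 by DESeq2 and 8 by limma-voom, with none lower. The 2 most abundant were *F13a1* (1946 ± 251 to 2995 ± 737, SD, n = 5 each, edgeR adjusted p = 0.0197) and *Csf1r* (1397 ± 139 against 1969 ± 708, edgeR adjusted p = 0.132). Endothelial genes summed to 21972 to 37259 in young and 11585 to 26349 in old aortae (exact permutation p = 0.0317, adjusted p = 0.0952), all 10 had log2 fold changes below zero, and 1 (*Tek*, log2 fold change -0.87, edgeR adjusted p = 0.0381) was called. At an unadjusted p below 0.05, 6 endothelial genes were lower, and DESeq2 and limma-voom each called 4 lower. *Pecam1* and *Vwf*, the most abundant of them, had log2 fold changes of -0.72 ± 0.21 (SE) and -0.91 ± 0.31 (SE), with edgeR adjusted p of 0.0554 and 0.0946. Endothelial cells share *Cd34* and *Ly6a* with stromal cells, and the part of the endothelial sum in those 2 markers was not tested. Smooth muscle genes, led by *Acta2* and *Myh11*, summed to 926978 to 1090136 in young and 850505 to 1037697 in old aortae, and the ratio of the means was 0.945 (exact permutation p = 0.278). Of 11 smooth muscle genes 1 was called, *Smtn* (log2 fold change 0.29, edgeR adjusted p = 0.0217).

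Lymphocyte genes had low counts, with sums of 215 to 693 in young and 479 to 1740.1 in old aortae (exact permutation p = 0.0476, adjusted p = 0.107), most of it *Ighm* (337 ± 155 against 733 ± 374, SD, n = 5 each), with *Cd79b* next at 13.3 ± 9.62 against 33.5 ± 40.5. Of 6 lymphocyte genes tested, 2 were higher, *Cd4* (log2 fold change 1.95, edgeR adjusted p = 0.00269) and *Cd3g* (log2 fold change 2.78, edgeR adjusted p = 0.0121). Adipocyte genes, led by *Plin4* and *Car3*, summed to 20593 to 48325 in young and 16641 to 26637 in old aortae (exact permutation p = 0.143). The list median log2 fold change was -0.92, while *Plin4*, the most abundant, was at -0.06. Of the 10, 0 were called by edgeR or limma-voom, and DESeq2 called 2 lower (*Plin1* and *Car3*), against 6.33% of its genes. At an unadjusted p below 0.05, 5 were lower, against 12.6% of all genes tested. Mesothelial genes, led by *Krt18* and *Upk3b*, summed to 171 to 285 in young and 145 to 171 in old aortae (exact permutation p = 0.0159, adjusted p = 0.0714). Most of this sum was *Krt18* (194 ± 47.4 against 140 ± 9.43, SD, n = 5 each), the only 1 of 9 genes with enough counts to be tested. Schwann cell genes, led by *Mbp* and *S100b*, summed to 803 to 1744 and 1029 to 1436, and pericyte genes were led by *Rgs5* and *Cspg4*. Neither list had a gene called by edgeR, DESeq2 or limma-voom. At an unadjusted p below 0.05, 1 was higher in each, against 14.1% of all genes tested. Skeletal and cardiac muscle genes, led by *Tnnt2* and *Ckm*, summed to 347 to 1454 in young and 692 to 1778 in old aortae. The gene called was *Tnnt2* (241 ± 72.3 against 798 ± 431, SD, n = 5 each, log2 fold change 1.74, edgeR adjusted p = 0.0116). It was the only 1 of 4 genes tested above zero, and the list median was -0.64. DESeq2 called 1 higher and 1 lower, and limma-voom 1 higher and 0 lower. The part of these cell types in the marker values was not tested.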

How the data were processed

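Poly(A)-selected RNA (TruSeq Stranded mRNA) of 10 aortae was sequenced. Per the paper's methods and the submitters' processing notes, reads were trimmed with fastp 0.20.0, aligned to GRCm38 with STAR 2.7.0f and GENCODE annotation, and counted per gene with featureCounts of Subread 1.6.4. The authors deposited the raw counts per gene as 1 table, with no normalization, and its 10 columns were matched to the samples by their titles. The strand setting and the treatment of multi-mapped reads are not given in the sources used here.

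Counts were fitted with edgeR 4.0.16 (R 4.3.3; TMM factors, filterByExpr by group, robust quasi-likelihood F test), old against young with no covariate, over 14614 genes, with Benjamini-Hochberg adjustment over all of them and a threshold of 0.05. Intervals are 95% from the moderated degrees of freedom. Normalized counts were counts divided by DESeq2 size factors. DESeq2 1.42.0 and limma-voom 3.58.1, other scalings and filters, a correction for GC content and length, a replicate block and leaving out each mouse were the alternatives. The procedure was tested on simulated data. Coordinates and exonic lengths came from GENCODE M21 on GRCm38, which matched 54471 symbols by name, and upstream windows from RefSeq on GRCm38.p6. For the 10 markers, counting error is small at these depths (19640401 to 22886153 counts), and the number of mice limits the precision.

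The 10 markers and the gene lists were chosen with earlier results of these data known. All markers were named. Of each related list, up to 4 genes called with the smallest p were named, with the PDGF ligands and receptors, the GLI genes, *Ptch1* and *Ly6c1*, *Ly6c2* and *Ly6e*, and the 2 most abundant genes of each cell type list. *Lum*, *Tek*, *Smtn*, *Cd4*, *Cd3g*, *Plin1*, *Cdon*, *Hhip* and *Emcn* were named after their values were seen, as the genes behind small counts. Of the stromal list, 1 symbol (*Nov*) was not matched to the table, and 1 gene that the rule names is not reported here.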

Additional observations from a re-analysis of the deposited data

Results flagged for a closer look

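In 38 groups of 5 mice, 1 for each marker or cell type list at each age, the highest and lowest values were compared with the rest by Dixon's test (critical value 0.71), which chance passes in about 1 of 20 groups. None of the 10 markers had such a value. The summed macrophage level of old mouse 3 was 21071 normalized counts against 11689 to 13634 in the other old mice. The summed adipocyte level of old mouse 2 was 26637 against 16641 to 18676 in the other old mice. The summed Schwann cell level of young mouse 1 was 1744 against 803 to 1021 in the other young mice. The summed skeletal and cardiac muscle level of young mouse 2 was 1454 against 347 to 569 in the other young mice.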

How the results depend on the processing

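Of 180 alternative values of the marker fold changes outside the replicate block, 169 kept their direction and side of the threshold, 6 passed it and 5 changed sign. The sign changes were in genes near zero, *Pdgfrb* (-0.012 without young mouse 3, -0.018 without young mouse 4, -0.0015 without old mouse 1, -0.0025 without old mouse 3, within a leave-one-out range of -0.018 to 0.079) and *Ly6a* (-0.013 without old mouse 2, within -0.013 to 0.202). The count of markers called higher was 1 (*Dpep1*) with DESeq2 and with upper-quartile scaling, and ran from 0 to 1 when a mouse was left out, being 1 without old mouse 1 or old mouse 2. The count called lower ran from 1 to 3 when a mouse was left out, being 3 without old mouse 3. It was 0 in the main edgeR fit at an adjusted p below 0.01. Over all genes, 1676 were called in the main setting, 658 at 0.01, 2325 by DESeq2 and 1695 by limma-voom, and 1132 to 2367 when a mouse was left out. Scaling moved the median of all genes by at most 0.03 on the log2 scale.

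With the replicate number as a block, the count of markers called lower was 0 and *Pi16* had a log2 fold change of -0.57 and an edgeR adjusted p of 0.0759, while 1261 genes were called. The numbers did not pair the mice. Deviations of same-numbered mice had correlations of -0.29, -0.07, 0.10, -0.05 and 0.13, and 2 of 5 correlated best with their own number.

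When a mouse was left out, the ratio of old to young summed level ran from 0.534 to 0.678 for endothelial, 1.82 to 2.80 for lymphocyte, 1.12 to 1.42 for Schwann cell, 0.666 to 0.758 for mesothelial and 1.26 to 2.22 for skeletal and cardiac muscle genes, and each of these crossed an unadjusted exact permutation p of 0.05 in at least 1 such fit. The cause of these shifts was not tested. The filter on low counts left 4 of 17 *Ly6* family, 6 of 12 lymphocyte, 1 of 9 mesothelial and 4 of 10 skeletal and cardiac muscle genes to be tested, so depth limits those lists.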
